A study of Mus musculus with 15 samples.

Results

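Neutrophils enter tissues along gradients of CXC chemokines, small secreted proteins that bind the receptor Cxcr2 on their surface. Granulocyte colony-stimulating factor (G-CSF, gene Csf3) acts through its receptor Csf3r to drive the production, release and survival of neutrophils. Many tumours, mammary carcinomas among them, make these factors, and the genes for the chemokines and for G-CSF are classic targets of inflammatory signalling through NF-kB, C/EBP factors and mRNA stability. The genes described here are the chemokine ligands Cxcl1, Cxcl2, Cxcl3 and Cxcl5, their receptor Cxcr2, the growth factor Csf3 and its receptor Csf3r. Their rows were found by symbol, and all 7 were among the 17271 genes measured.

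RNA sequencing had been done on 15 mouse mammary tumours of strain BALB/c, all p53-null, so the control level within each comparison is another p53-null tumour. The tumours belonged to 4 models: 2151R (4 samples), T11 (1 sample), 2225L (2 samples) and 2208L (8 samples). The series is titled for work on triple negative breast cancer treated by chemotherapy with depletion of macrophages, but sample titles name neither treatment. In 2151R, replicates 3 and 4 are titled NT2 and NT, and the other 2 carry codes whose meaning is not given. The 2225L samples are titled T-Vivo (replicate 1) and ROSEN (replicate 2). The 2208L samples comprise 4 titled PBS, 3 titled 3day nt and 1 titled ROSEN. Age, tumour stage and the cells each model was grown from are not given in the sources used here, nor is whether replicates came from separate animals, so p-values measure only the spread between these samples.

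The values are log2 expression centred for each gene on a median that the authors took over an unstated set of samples. A value of 0 is therefore that gene's reference level, a difference of 1 log2 unit is a ratio of 2, and levels of different genes cannot be ranked against each other. No counts are in the deposited table, and library depth is therefore unknown. Each tumour is a mixture of cell types, and in such bulk RNA fewer cells of a type and less RNA per cell cannot be told apart. As a check of the tissue, 7 of 8 epithelial markers were lower in 2151R than in 2208L (limma), among them Cldn7 at a log2 difference of -8.34 ± 0.31 (SE). The other marker, Krt5, was called higher, with means of 2.72 in 2151R and -2.01 in 2208L. The skeletal muscle marker mean stood apart in 3 libraries, at 6.22 in 2151R replicate 3, 10.02 in 2208L 3day nt replicate 1 and 9.45 in 2208L 3day nt replicate 3, against -3.36 to 2.71 in the other 12. The library numbers in the titles of 2151R, 2208L PBS and 2208L 3day nt do not overlap, and a difference between these groups cannot be told apart from one between libraries numbered apart.

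The 4 chemokine genes lie on 1 strand of mouse chromosome 5 (build GRCm38.p6, RefSeq annotation), with Cxcl5 at 90759298 to 90761625, Cxcl3 at 90786101 to 90788093, Cxcl1 at 90891245 to 90893121 and Cxcl2 at 90903899 to 90905938. Csf3 lies on chromosome 11 at 98700183 to 98703631, Cxcr2 on chromosome 1 at 74153994 to 74161246 and Csf3r on chromosome 4 at 126023441 to 126044975. Promoter sequences matched 5 of the 7 genes by symbol (RefSeq, GRCm38.p6), and those not matched are Cxcl5 and Csf3. The 110 bases before the start of Cxcl1 (chr5:90891135-90891244), Cxcl2 (chr5:90903789-90903898) and Cxcl3 (chr5:90785991-90786100) are shown because these 3 neighbours share sequence features but, as described below, differed in how they varied between tumours. All are on the plus strand, and capitals mark matches to GGNNTTTCC (an NF-kB-like motif, either strand) and to ATAAAAG (either strand), which resembles a core promoter box.
Cxcl1: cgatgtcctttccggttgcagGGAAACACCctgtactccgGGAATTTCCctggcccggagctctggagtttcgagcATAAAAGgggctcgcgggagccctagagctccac
Cxcl2: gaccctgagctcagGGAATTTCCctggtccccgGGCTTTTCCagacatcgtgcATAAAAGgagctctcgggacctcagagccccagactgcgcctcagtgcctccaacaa
Cxcl3: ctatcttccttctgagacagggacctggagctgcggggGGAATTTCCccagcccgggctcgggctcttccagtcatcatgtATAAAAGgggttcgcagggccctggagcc

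Within the 250 bases before the start, GGNNTTTCC occurred at 2 places in Cxcl1 and in Cxcl2 and at 1 in Cxcl3. Of 32851 mouse promoter windows of that length, 4.93% held it at least once and 0.198% at 2 or more places. ATAAAAG occurred once in each of the 3 and in 4.83% of all windows, and the 2 motifs do not overlap in these sequences. The letters TTNNGCAAT (a C/EBP-like motif, in 1.93% of windows) were not in the windows of Cxcl1, Cxcl2 or Cxcl3. The windows of Cxcr2 and Csf3r held none of the 3 motifs. The Csf3r window ends at 126024658, inside the gene as placed above, so the bases before its outer start at 126023441 were not searched. The motifs were chosen after the sequences had been read, and a match is a description of letters, not of binding.

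The ligands and the receptors also differed in their 3′ UTRs (GENCODE M21, longest coding transcript). The core letters of AU-rich elements, ATTTA, are known from mRNAs of cytokines that decay fast. They occurred 7 times in the 592 bases of Cxcl1, 11 times in the 1494 bases of Cxcl2, 5 times in the 645 bases of Cxcl3, 5 times in the 1111 bases of Cxcl5 and 6 times in the 669 bases of Csf3. Cxcr2 held 2 in 1818 bases and Csf3r 0 in 602 bases. The Cxcl2 transcript used had 3 exons, against 4 in those of Cxcl1, Cxcl3 and Cxcl5. Its 3′ UTR counts may therefore include bases that other transcripts of the gene splice out. Per kilobase the 5 secreted factors held 4.5 to 11.8, Cxcr2 1.1 and Csf3r 0.0, beside a median of 1.26 over 14324 genes of the table with a 3′ UTR. The longer form TATTTAT occurred 6 times in Cxcl1, 7 in Cxcl2, 2 in Cxcl3, 1 in Cxcl5, 2 in Csf3 and 0 in Cxcr2 and Csf3r. Of those genes, 29.5% held it at least once and 3.92% 3 or more times.

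Of the 7 genes, only Csf3, the gene of G-CSF, had all 2208L samples above all samples of the other models. The share of all genes whose groups lie apart without overlap, here or in later passages, was not counted. Csf3 values in 2208L were 3.28 in the ROSEN sample, 3.59, 2.74, 3.19 and 4.28 in PBS, and 3.48, 3.34 and 3.40 in 3day nt. In 2151R the values were -3.01, -0.02, -1.53 and -2.14, in T11 -0.72, and in 2225L 0.27 and -0.73. The gap between the 8 samples of 2208L and the other 7 ran from 0.27 to 2.74. Among the other models the order was 2225L, T11 and 2151R by mean, but their samples overlapped.

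The log2 difference in Csf3 between 2151R and 2208L was -5.09 ± 0.44 (SE; limma, adjusted p = 6.89e-07), and over 24 alternative settings it ranged from -5.64 to -4.64 and stayed past the threshold in each. Between 2225L and 2208L it was -3.65 ± 0.57 (limma, adjusted p = 0.000363), and it missed the threshold in 1 of 20 settings, with sample weights (-3.47, adjusted p = 0.0563). The difference between 2225L and 2151R, 1.44 ± 0.63, did not pass the test (limma, adjusted p = 0.0722). It passed without 2151R replicate 2 (1.99, adjusted p = 0.00452), the sample with the highest Csf3 of that model.

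Cxcl1, a main Cxcr2 ligand of mouse tissues, was also highest in 2208L, though T11 matched it. Its values were 0.35 in the ROSEN sample, 1.66, 1.71, 1.56 and 2.07 in PBS, and 1.40, 1.15 and 1.37 in 3day nt. The 2151R samples held -0.46, 0.00, -0.77 and -0.10, the 2225L samples -0.46 and -2.37, and T11 1.42. The T11 value lay above 4 of the 8 samples of 2208L and above all of 2151R and 2225L. With a single T11 sample, no test was made.

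Against 2208L, Cxcl1 differed by -1.74 ± 0.35 log2 units in 2151R (limma, adjusted p = 0.00108) and by -2.83 ± 0.45 in 2225L (limma, adjusted p = 0.000426). In both comparisons the groups did not overlap, and the call held in all 24 and all 20 alternative settings. The difference between 2225L and 2151R was -1.08 ± 0.50 (limma, adjusted p = 0.0866). Without 2225L replicate 1 it was -2.04 and passed the test (adjusted p = 0.00562), so it rested on which of the 2 samples stood for 2225L.

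**Figure D1:**
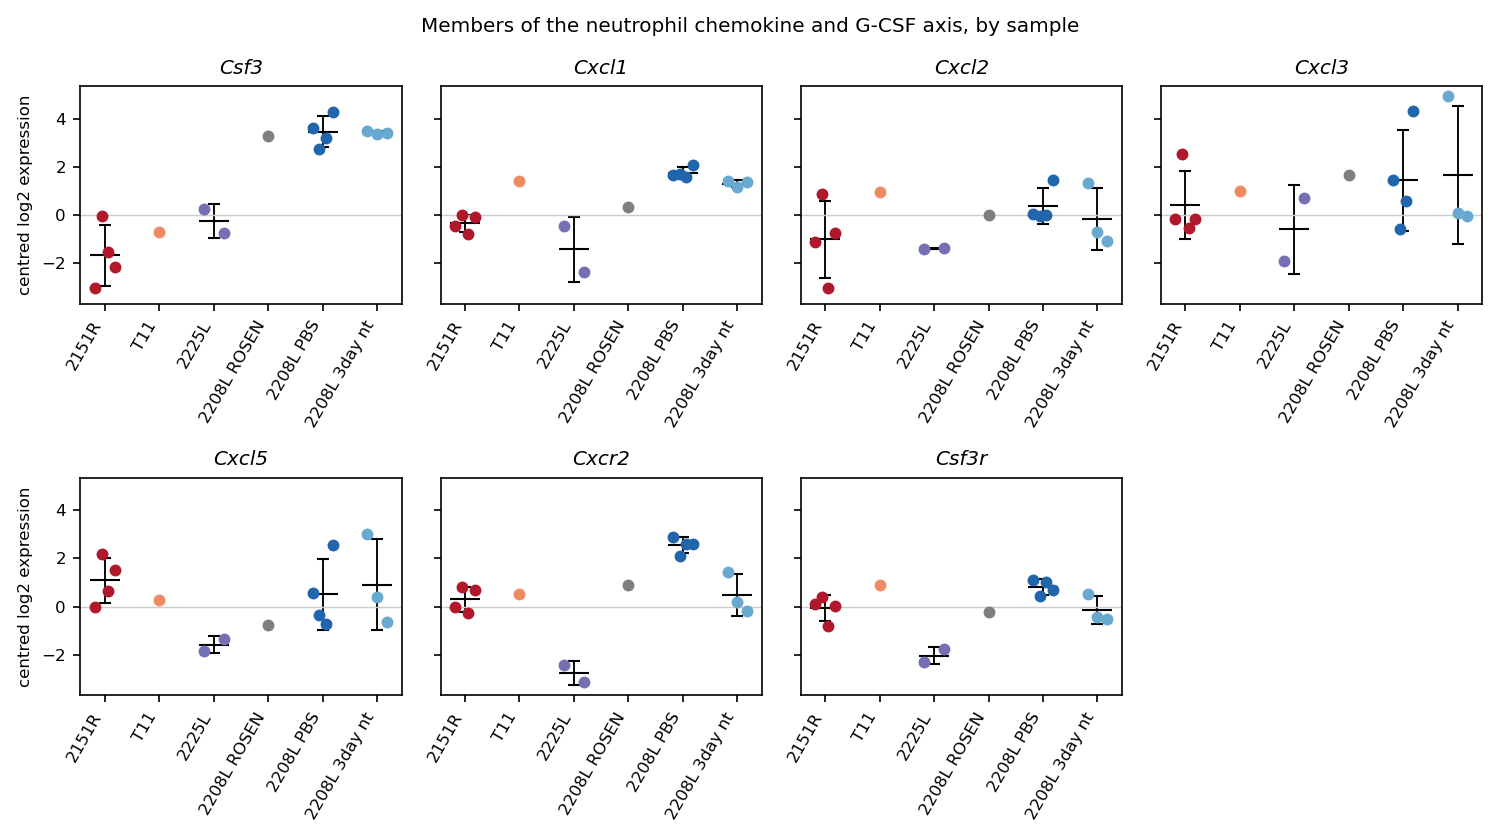
Centred log2 expression (y axis) of the 7 genes in the 15 tumours, grouped on the x axis by model and, for 2208L, by title. Points are samples, and bars give the mean ± SD where a group has more than 1 sample. For Csf3 all 8 samples of 2208L lie at 2.74 or above and all others at 0.27 or below, while Cxcl3 spreads from -0.58 to 4.94 within 2208L.

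The other 3 chemokines varied mainly within models. Cxcl2 values were -1.13, 0.89, -3.01 and -0.76 in 2151R, 0.95 in T11, -1.40 and -1.38 in 2225L, 0.02 in the 2208L ROSEN sample, 0.03, -0.05, 0.00 and 1.47 in PBS, and 1.31, -0.71 and -1.07 in 3day nt. The 2225L samples lay below all 8 of 2208L, but the difference of -1.52 ± 0.80 did not pass the test (limma, adjusted p = 0.165). The 2151R samples ranged from -3.01 to 0.89 and overlapped both other models, and their difference from 2208L was -1.13 ± 0.62 (limma, adjusted p = 0.148).

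Cxcl3 values were -0.15, 2.53, -0.54 and -0.18 in 2151R, 0.99 in T11, -1.90 and 0.72 in 2225L, 1.68 in the 2208L ROSEN sample, 1.45, -0.58, 0.58 and 4.31 in PBS, and 4.94, 0.10 and -0.06 in 3day nt. Its log2 differences from 2208L were -1.14 ± 1.06 in 2151R (limma, adjusted p = 0.396) and -2.14 ± 1.37 in 2225L (limma, adjusted p = 0.253), with standard errors near the size of the differences. A single sample stood high in each of 2151R, PBS and 3day nt. Transcripts of Cxcl2 and Cxcl3 shared 80 words of 31 bases, of 1829 in Cxcl2 and 986 in Cxcl3, so reads from that stretch could have been assigned to either gene. No such word was shared by any other pair of the 4 chemokines.

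Cxcl5, a Cxcr2 ligand made largely by epithelial cells, had values of 0.00, 2.17, 0.66 and 1.50 in 2151R, 0.28 in T11, -1.83 and -1.33 in 2225L, -0.76 in the 2208L ROSEN sample, 0.57, -0.35, -0.74 and 2.54 in PBS, and 2.99, 0.39 and -0.65 in 3day nt. Both 2225L samples lay below the other 13. The difference between 2225L and 2151R, -2.66 ± 1.03, passed the test narrowly (limma, adjusted p = 0.0474) and missed it in 8 of 13 alternative settings. Between 2225L and 2208L it was -2.08 ± 0.94 (limma, adjusted p = 0.109). Cxcl5 was the only gene of the 7 with a positive value for 2151R minus 2208L, 0.58 ± 0.73, which did not pass the test (limma, adjusted p = 0.532).

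Cxcl2, Cxcl3 and Cxcl5 shared the samples in which they were high. In 2151R replicate 2, 2208L PBS replicate 4 and 2208L 3day nt replicate 1, Cxcl2 was 0.89, 1.47 and 1.31, Cxcl3 was 2.53, 4.31 and 4.94, and Cxcl5 was 2.17, 2.54 and 2.99. Each of these was the highest value of its gene in its group. These 3 samples are named because the 3 chemokines peak there, and how many of all genes also peak there was not counted. For Csf3 the same 3 samples were also the highest of their groups, at -0.02, 4.28 and 3.48. In 3day nt the other Csf3 values were close, at 3.34 and 3.40. Cxcl1 was highest there too, at 0.00, 2.07 and 1.40, though by small margins in 3day nt.

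Neighbouring genes of the cluster were looked at in the same samples. The outermost chemokine genes span 146.6 kb with 7 coding genes, 6 of which are in the table. Ppbp, a platelet chemokine gene between Cxcl5 and Cxcl3, was 1.14, 2.51 and 3.01 in the 3 samples and was the highest of its group in each. Pf4, the platelet factor gene next to it, was 1.69, -0.97 and 2.57 and likewise the highest of each group. Beyond the cluster, the metabolic gene Mthfd2l was 0.46, -0.30 and 0.16, and Ereg, which encodes the EGF receptor ligand epiregulin, was 2.02, -0.06 and -0.09. Epgn, which encodes another EGF receptor ligand, was -0.42, 1.61 and 1.01. Mthfd2l, and Rassf6 on the other side of the cluster, were the highest of their group in 0 of the 3 samples, Epgn in 1 (2208L PBS replicate 4) and Ereg in 2 (2208L PBS replicate 4 and 2208L 3day nt replicate 1). Ereg also differed between models, with means of 2.43 in 2151R, -2.23 in 2225L and -0.72 in 2208L and a value of 3.61 in T11. The muscle marker mean was high in 1 of these 3 samples, 2208L 3day nt replicate 1, and lay at -2.97 and -2.06 in 2151R replicate 2 and 2208L PBS replicate 4. What the 3 samples share beyond these values was not tested.

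**Figure D2:**
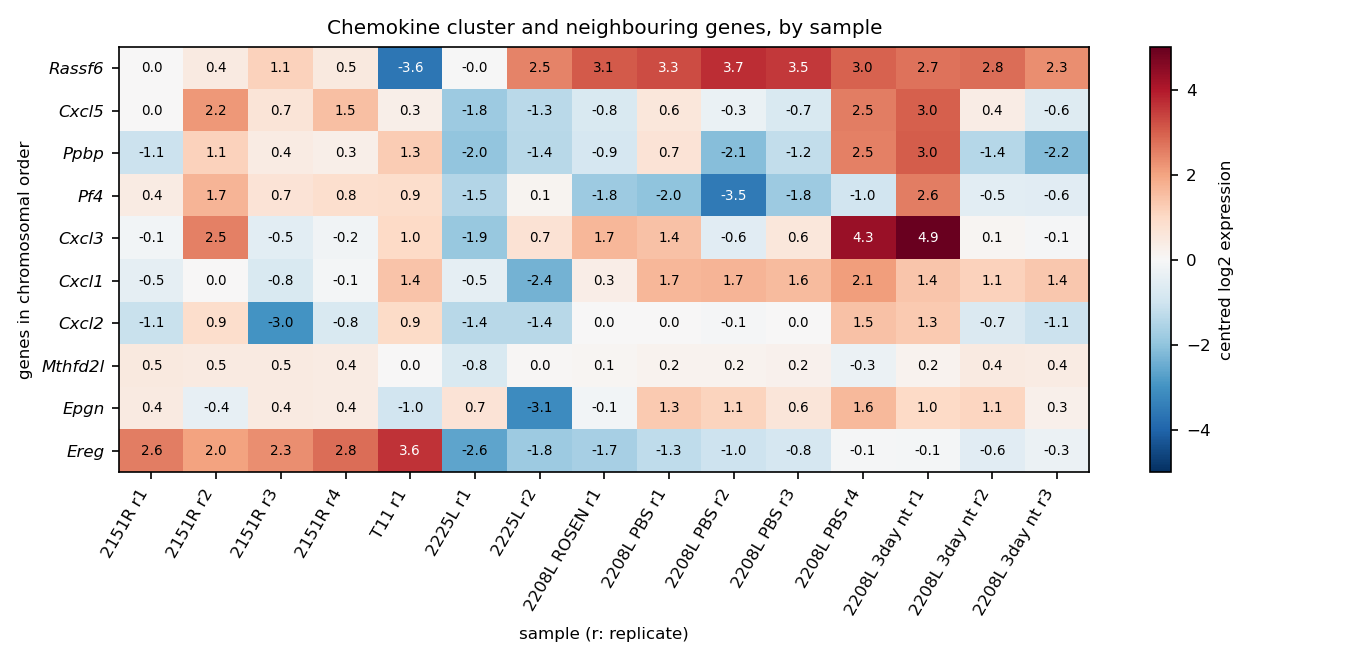
Centred log2 expression of the genes of the chemokine cluster and of measured neighbours (rows, in chromosomal order) in the 15 tumours (columns, r: replicate), with the value printed in each cell and coloured from blue (low) to red (high). Cxcl3 is at 2.5, 4.3 and 4.9 in 2151R replicate 2, 2208L PBS replicate 4 and 2208L 3day nt replicate 1, where Cxcl5 and Ppbp are also high and Mthfd2l is not.

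The receptors set 2225L apart, on the low side. Cxcr2 is carried mainly by neutrophils, and its values in 2225L were -2.42 and -3.12. In 2151R they were 0.00, 0.80, -0.29 and 0.67, in T11 0.54, in the 2208L ROSEN sample 0.91, in PBS 2.89, 2.10, 2.59 and 2.60, and in 3day nt 1.44, 0.20 and -0.20. Both 2225L samples lay more than 2 log2 units below the other 13. Csf3r, which neutrophils and their precursors carry, was -2.29 and -1.77 in 2225L. It was 0.12, 0.41, -0.81 and 0.02 in 2151R, 0.91 in T11, -0.21 in the 2208L ROSEN sample, 1.11, 0.42, 1.01 and 0.67 in PBS, and 0.51, -0.42 and -0.53 in 3day nt. Here too both 2225L samples were the lowest of all.

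Cxcr2 differed by -4.33 ± 0.72 between 2225L and 2208L (limma, adjusted p = 0.000574) and by -3.07 ± 0.79 between 2225L and 2151R (limma, adjusted p = 0.0062). Csf3r differed by -2.35 ± 0.44 (limma, adjusted p = 0.00126) and by -1.97 ± 0.48 (limma, adjusted p = 0.00451) in the same comparisons. Against 2151R, the Cxcr2 call was lost with sample weights and without 2225L replicate 2, and the Csf3r call with sample weights. Only 2 samples stood for 2225L, and they differ in the library prefix of their titles.

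Between 2151R and 2208L the receptors did not pass the test, at -1.27 ± 0.56 for Cxcr2 (limma, adjusted p = 0.0773) and -0.38 ± 0.34 for Csf3r (limma, adjusted p = 0.372). The outcome turned on which 2208L samples were used. Against the PBS samples alone, Cxcr2 differed by -2.24 (limma, adjusted p = 0.000433) and Csf3r by -0.87 (limma, adjusted p = 0.0351). Against the 3day nt samples alone the values were -0.18 (adjusted p = 0.727) and 0.082 (adjusted p = 0.854).

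Counted over the axis, 2 of 7 genes were lower and 0 higher in 2151R than in 2208L, where 22.7% of all 17271 genes were called lower and 26.1% higher (limma, adjusted p under 0.05). At an unadjusted p under 0.05 the counts were 3 lower and 0 higher. In 2225L against 2208L 4 of 7 were lower and 0 higher, beside 17.3% lower and 15.6% higher of all genes, and 5 lower and 0 higher at an unadjusted p under 0.05. In 2225L against 2151R 3 of 7 were lower and 0 higher, beside 25.8% lower and 22.8% higher, and 4 lower and 1 higher at an unadjusted p under 0.05. The share of 2 in 7 lay near the background, and those of 3 and 4 in 7 lay above it in a set too small to place them closely. Median log2 differences over the 7 genes were -1.14, -2.35 and -1.08 in these 3 comparisons, beside 0.10, -0.04 and -0.10 over all genes. The comparisons share samples pairwise, so their values are given side by side and not as repeats of one another.

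**Figure D3:**
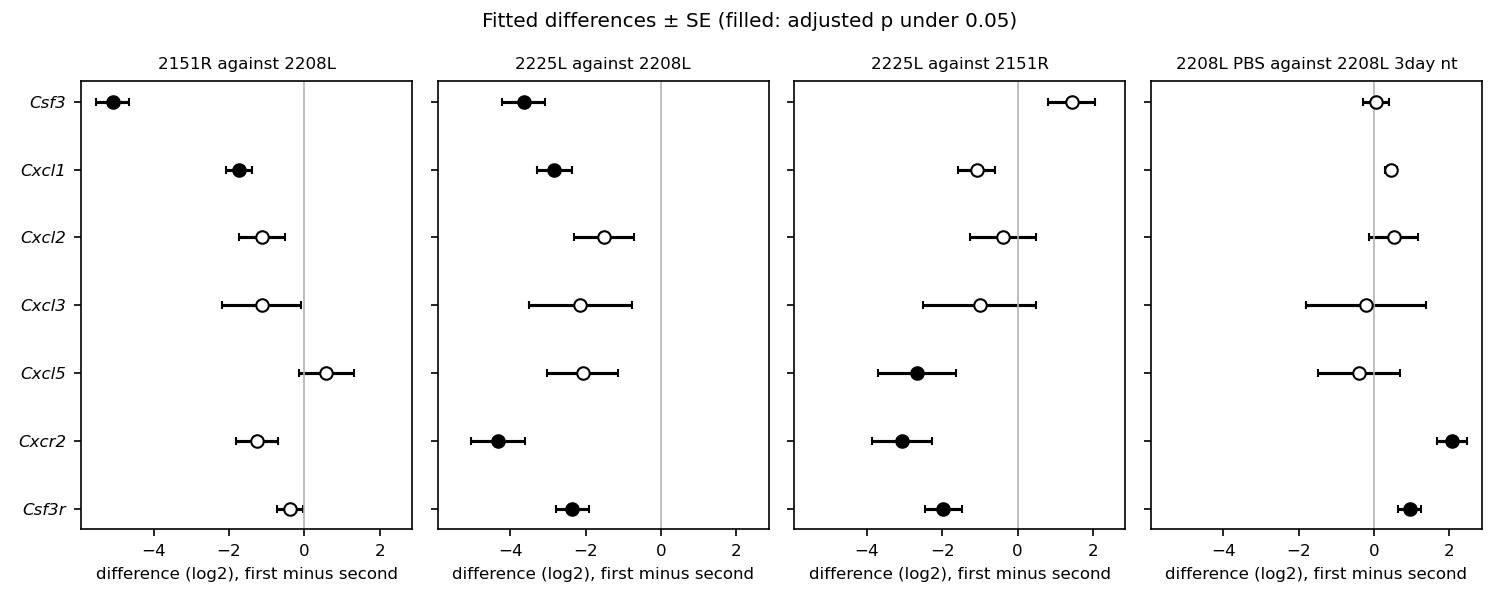
Fitted log2 differences ± SE (x axis, first group minus second) of the 7 genes (rows) in the 4 tested comparisons (panels), with filled points where the adjusted p was under 0.05. Csf3 and Cxcl1 are filled and negative in both comparisons with 2208L, and the receptors in both comparisons of 2225L and, on the positive side, in 2208L PBS against 2208L 3day nt.

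The T11 tumour was low in Csf3 and high in Cxcl1. Its Csf3 value, -0.72, lay below all 8 samples of 2208L, 4.13 log2 units under their mean. For Cxcl1 it lay 0.016 above the 2208L mean and 1.76 above that of 2151R. For Cxcl2, 0.95, and Csf3r, 0.91, it lay above all 4 samples of 2151R and above 6 of 8 samples of 2208L. For Cxcl3, Cxcl5 and Cxcr2 it fell inside the ranges of both 2151R and 2208L. These are values of a single library with no replicate check.

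Within 2208L, the receptors were higher in the PBS samples than in the 3day nt samples, while the ligands and G-CSF were not called. Cxcr2 lay between 2.10 and 2.89 in PBS and between -0.20 and 1.44 in 3day nt, a difference of 2.06 ± 0.40 with no overlap (limma, adjusted p = 0.0113). Csf3r differed by 0.95 ± 0.30 (limma, adjusted p = 0.0495), and its groups overlapped. For Cxcl1 the groups did not overlap, but the difference of 0.45 ± 0.15 missed the threshold (limma, adjusted p = 0.0617). Csf3 differed by 0.04 ± 0.34 (limma, adjusted p = 0.932), Cxcl2 by 0.52 ± 0.66 (adjusted p = 0.559), Cxcl3 by -0.22 ± 1.59 (adjusted p = 0.924) and Cxcl5 by -0.40 ± 1.08 (adjusted p = 0.790). Thus 2 of 7 genes were higher and 0 lower, where 17.4% of all genes were higher and 16.5% lower, and 3 were higher and 0 lower at an unadjusted p under 0.05 (limma).

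Muscle RNA moved with this comparison. The mean of 12 muscle markers was 1.50 to 10.02 in 3day nt and -2.75 to 2.71 in PBS. By the test 2 of the 12 were lower in PBS, among them Pvalb at -9.48 (a gene for which 2 PBS samples share 1 exact value). At an unadjusted p under 0.05, 11 were lower and 0 higher (limma), and the median log2 difference over the 12 was -7.06. Other cell types moved too, with medians of -4.77 over 8 adipocyte, -3.52 over 5 mast cell and eosinophil and -1.56 over 9 T and B cell markers. In these lists 1, 1 and 3 genes were called lower and 0, 1 and 0 higher (limma). Their part in the receptor difference was not tested. With the muscle marker mean as a covariate Cxcr2 differed by 2.34 (limma, adjusted p = 0.135), and without the samples high in muscle markers by 2.34 (limma, adjusted p = 0.0668), so the size stayed while the call was lost. The latter setting left 1 sample of 3day nt, which is assumed to vary like the PBS samples. The Csf3r call was lost in 9 of 17 alternative settings.

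Markers of neutrophils other than these receptors were compared across the same groups. Of 24 listed, 18 are in the table, and Ly6g, Elane, Ctsg and Camp are among those that could not be used. Counts of called genes in this and later lists are to be read beside the shares over all genes given above for each comparison. The mean of the 18 was -0.39 to 0.61 in 2151R, -0.46 in T11, -0.77 and -0.73 in 2225L, 0.96 in the 2208L ROSEN sample, 0.82 to 2.41 in PBS and 0.39 to 1.26 in 3day nt. Every 2225L sample lay below every sample of the other models, and PBS and 3day nt overlapped.

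By gene, 9 of 18 neutrophil markers were lower and 1 higher in 2151R than in 2208L (limma), with a median log2 difference of -1.47. The lower ones included Cd177, a surface protein of neutrophils (-4.95 ± 0.71), and Prtn3, the granule enzyme proteinase 3 (-4.82 ± 0.49). Cd177 and Prtn3 did not follow the marker mean in 2225L. Their means there were 1.74 and 1.47, against -2.77 and -0.85 in 2151R and values of -3.20 and -2.30 in T11. The 1 marker higher in 2151R was the matrix metalloproteinase Mmp9 (4.93 ± 0.45), which macrophages and tumour cells also make. In 2225L against 2208L 10 were lower and 1 higher, with a median of -2.46. Retnlg, a neutrophil gene of the resistin family, was at -4.36 ± 1.09, and Asprv1, which skin epithelium also expresses, at 2.38 ± 0.51. Between 2225L and 2151R 6 were lower and 4 higher, with a median of -1.66. In PBS against 3day nt 6 were higher and 0 lower (10 and 0 at an unadjusted p under 0.05), with a median of 0.70 and Cd177 at 2.42 ± 0.43.

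The plot of Cxcr2 against the neutrophil marker mean has the 2225L samples at the lower left and 3 of the PBS samples at the upper right. Samples in between did not keep 1 order, since 2208L PBS replicate 2 and 2208L 3day nt replicate 2 had marker means of 0.82 and 0.87 but Cxcr2 values of 2.10 and 0.20. Csf3 was 2.74 or above in all 8 samples of 2208L, whose marker means lay between 0.39 and 2.41. In 2151R replicates 2 and 4 the marker mean, 0.61 and 0.36, lay near that of the lowest 2208L samples, while Csf3 was -0.02 and -2.14. The markers include Mmp9, with means of 4.94 in 2151R and 0.01 in 2208L. How much of the receptor and Csf3 differences comes with the number of neutrophils was not tested.

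**Figure D4:**
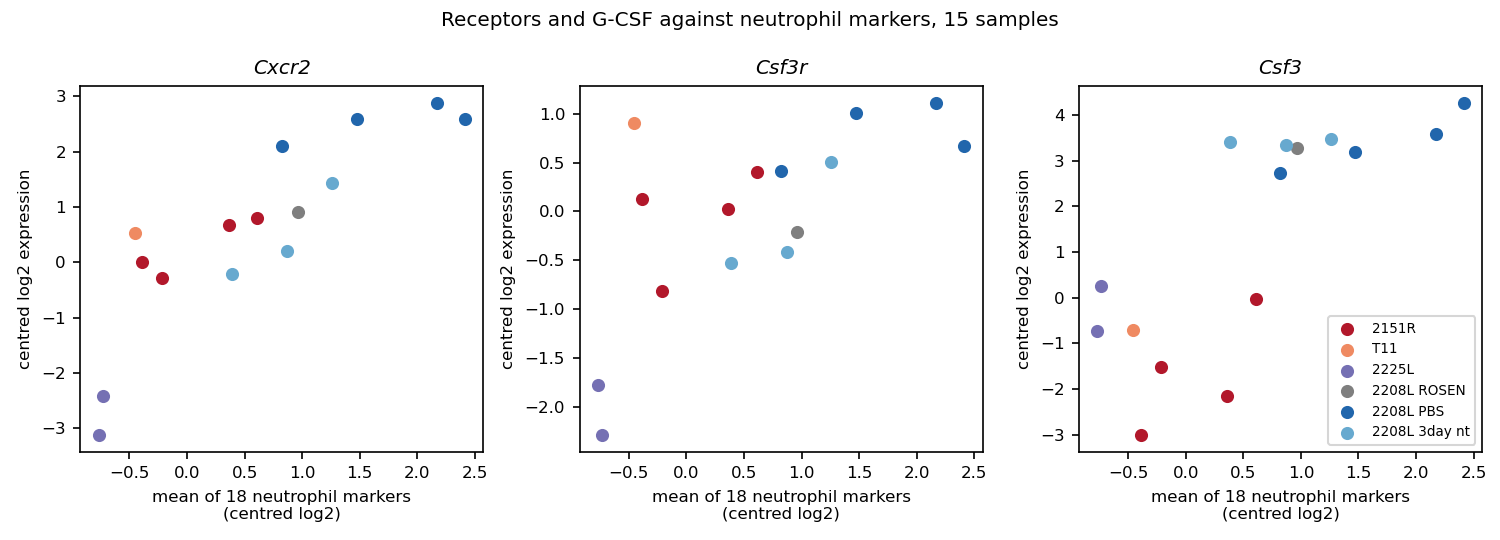
Centred log2 expression of Cxcr2, Csf3r and Csf3 (y axes) against the mean centred log2 value of 18 neutrophil markers (x axis) in the 15 tumours, coloured by group. Csf3 lies at 2.74 or above in 2208L, whose marker means run from 0.39 to 2.41. Cxcr2 lies lowest in the 2 samples of 2225L, whose marker means are the lowest.

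The cytokine inputs known to switch on these chemokines and G-CSF, interleukin 1, interleukin 17, TNF and Toll-like receptor signals, were then described. Of 23 genes listed for these signals, 17 are in the table, and Il17a, Il17c and Il17f are not. The list holds receptors and the antagonist Il1rn besides cytokines, so its counts do not measure induction. In 2151R 2 were higher and 5 lower than in 2208L (limma), with a median of -0.23. Il17re, a receptor chain for the epithelial interleukin 17C, differed by -5.84 ± 0.20, with -5.07 to -4.31 in 2151R, -8.96 in T11, 0.02 and 0.66 in 2225L and 0.64 to 1.49 in 2208L. Il1b, the secreted interleukin 1 beta, differed by -1.37 ± 0.21. The receptor gene Il1r1 went the other way, at 1.78 ± 0.35, as did Il1rl2, a receptor for interleukin 36, at 0.94 ± 0.28. In T11 Il1b was 1.20, above every other sample but close to the highest 2208L value, 1.19.

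In 2225L 2 genes of this list were higher and 8 lower than in 2208L. The receptor chain Il17rb was at 2.69 ± 0.43 and the receptor antagonist Il1rn at -3.03 ± 0.30. Against 2151R 3 were higher and 9 lower, with Il17re at 5.02 ± 0.28 and the shared receptor chain Il1rap at -2.81 ± 0.39. In PBS against 3day nt 3 were higher and 1 lower, with Tlr4, the receptor for bacterial lipopolysaccharide, at 1.16 ± 0.17 and Il17rc at -0.56 ± 0.15.

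Among 15 transcription factors and inhibitors upstream of the axis, 2151R had 6 higher and 5 lower than 2208L (limma). The C/EBP factors were lower, with Cebpb at -3.37 ± 0.41 and Cebpd at -2.24 ± 0.25. Cebpb values were -2.50 to -1.62 in 2151R, -1.39 in T11, -1.12 and 1.87 in 2225L and 0.95 to 1.82 in 2208L. The NF-kB subunit gene Nfkb1 was higher at 2.02 ± 0.16, and the NF-kB inhibitor gene Nfkbia at 0.86 ± 0.24. In 2225L 1 was higher and 6 lower than in 2208L, with Rela at 0.74 ± 0.16 and Rel at -1.31 ± 0.28. Against 2151R 3 were higher and 6 lower, with Cebpb at 2.35 ± 0.58 and Nfkb1 at -2.07 ± 0.22. In PBS against 3day nt 0 were higher and 4 lower (2 and 6 at an unadjusted p under 0.05), with Nfkbia at -0.53 ± 0.15.

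Signalling below the G-CSF receptor runs through Jak kinases, Stat3 and Stat5, with Socs proteins as feedback inhibitors, and these genes act in many cell types besides neutrophils. Of 19 in the table, 2151R had 6 higher and 3 lower than 2208L (limma), beside 26.1% higher and 22.7% lower of all genes. The kinase genes Syk and Jak1 were at 1.54 ± 0.26 and 1.13 ± 0.18, and Stat3 and Stat5a at -1.86 ± 0.12 and -1.26 ± 0.17. Stat3 was -0.86 to -0.33 in 2151R, -0.28 in T11, 0.38 and 0.63 in 2225L and 1.11 to 1.45 in 2208L, so the ranges of the 3 replicated models did not overlap and T11 lay next to 2151R. In 2225L 0 were higher and 9 lower than in 2208L (2 and 10 at an unadjusted p under 0.05), with Stat5b at -1.95 ± 0.30. Against 2151R 2 were higher and 10 lower, with the kinase gene Pim1 at 1.34 ± 0.31 and Socs1 at -2.85 ± 0.75. In PBS against 3day nt 4 were higher and 2 lower, with the adaptor gene Shc1 at 0.69 ± 0.14 and Socs1 at -1.57 ± 0.29.

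Other signals that draw or hold neutrophils did not follow 1 pattern. Of 15 genes, 2151R had 6 higher and 2 lower than 2208L (limma). Alox5, the enzyme that starts leukotriene synthesis, was at 2.32 ± 0.48, and Ptgs2, the inducible cyclooxygenase, at 2.14 ± 0.48. Lcn2, the iron-binding protein lipocalin 2 that neutrophils and inflamed epithelium release, was at -7.38 ± 0.34, with -3.43 to -1.98 in 2151R, -6.20 in T11, 1.44 and 2.48 in 2225L and 3.80 to 5.10 in 2208L. Cxcr4, a chemokine receptor that retains neutrophils in bone marrow, was at -0.60 ± 0.21, with overlapping groups.

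In 2225L 1 of these 15 was higher and 5 lower than in 2208L, with Cxcr4 at 4.01 ± 0.27 and its ligand Cxcl12 at -3.30 ± 0.38. Against 2151R 2 were higher and 7 lower, with Lcn2 at 4.71 ± 0.48 and Ptgs2 at -4.78 ± 0.68. In PBS against 3day nt 3 were higher and 3 lower, with Fpr1, the receptor for formylated bacterial peptides, at 2.38 ± 0.40 and the cytokine gene Il6 at -2.30 ± 0.53.

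A small list held other chemokine ligand and receptor genes near the axis by function or position: Ppbp, Pf4, Cxcl15, Cxcr1 and the scavenging receptor genes Ackr1 and Ackr2, of which Ackr2 mainly takes up CC chemokines. Of these 6, 4 are in the table, and 0 were called in 2151R against 2208L (limma, with 1 higher at an unadjusted p under 0.05). Ackr2 was lower in 2225L, by a log2 difference of -3.32 ± 0.69 against 2208L and -3.77 ± 0.75 against 2151R, and higher in PBS than in 3day nt (1.39 ± 0.34). Ackr1, a gene of red cells and venules, was lower in PBS (-4.34 ± 0.92), with 1 PBS value that is shared exactly with a 2225L sample. Among 10 other myeloid growth factor and receptor genes 2151R had 4 higher and 1 lower than 2208L. Flt3 was at 3.16 ± 0.89, the macrophage growth factor Csf1 at 1.64 ± 0.21 and the stem cell factor receptor Kit at -3.44 ± 0.34. In 2225L 3 of these 10 were lower and 0 higher than in 2208L (4 and 0 at an unadjusted p under 0.05), with Csf2rb2 at -2.04 ± 0.34, and against 2151R 6 were lower and 1 higher, Kit at 3.19 ± 0.48. In PBS against 3day nt 3 were lower and 1 higher, Kitl at 0.99 ± 0.24.

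Macrophages also make several of these chemokines, and their markers moved between models too. Of 12 macrophage and monocyte markers, 2151R had 6 higher and 1 lower than 2208L (limma), with the mannose receptor Mrc1 at 2.28 ± 0.64 (overlapping groups), the scavenger receptor Msr1 at 1.97 ± 0.24 and Cd14, a lipopolysaccharide coreceptor, at -3.76 ± 0.29. In 2225L 6 were lower and 0 higher than in 2208L, 9 were lower and 0 higher than in 2151R, and in PBS against 3day nt 2 were lower and 0 higher. At an unadjusted p under 0.05 these counts were 8, 9 and 5 lower and 0 higher in each. Their part in the values of the 7 genes was not tested.

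The 7 genes did not vary as 1 unit. Over the 15 tumours Cxcr2 and Csf3r had a Pearson correlation of 0.91 (0.96 over the 8 samples of 2208L). Cxcl2 and Cxcl3 had 0.78 (0.90 within 2208L), and Cxcl3 and Cxcl5 0.76 (0.89). By rank (Spearman) over the 15 tumours, Cxcl2 and Cxcl3 had 0.82, but Cxcl3 and Cxcl5 only 0.46. Csf3 and Cxcl5 had 0.11 over all tumours and 0.66 within 2208L. Cxcl1, the neighbour of Cxcl2 on the chromosome, had 0.65 with Cxcl2 and 0.83 with Cxcr2. These correlations describe samples that fall into models with separate levels and share library ranges, so they carry no test.

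The genes with the most similar pattern to each of the 7 were sought by Pearson correlation over the 15 samples among 14173 genes. For Csf3 they were Ier3 (r = 0.97), Snrpn (0.96) and Tgtp1 (0.96), the last of which has a near-identical copy in the genome. Ier3, an immediate early response gene, was 2.26 to 2.60 in 2208L and -1.43 to 0.45 in the others. For Cxcl1 the 3 were Vps37a (0.97), Ccdc141 (0.96) and Mtus1 (0.95). For Cxcr2 they were Cd274, the gene of the immune checkpoint ligand PD-L1 (0.95), Trem1, an amplifying receptor of neutrophils and monocytes (0.95), and Ifit1bl2 (0.94). For Csf3r they were Cd38 (0.94), F3, the gene of tissue factor (0.94), and Fam177a (0.93).

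The more variable chemokines had lower best values. For Cxcl2 the genes were Hcar2 (0.83), Il7r (0.79) and S100a8, a subunit of calprotectin (0.79). Cxcl3 had Ppbp (0.82), Fam124a (0.76) and Ifitm6 (0.73), and Cxcl5 had Ppbp (0.88) and Tnfrsf26 (0.83). Ppbp thus stood first by Pearson correlation for both Cxcl3 and Cxcl5, and lies between them on the chromosome. Its values were 2.51 in 2208L PBS replicate 4 and 3.01 in 2208L 3day nt replicate 1. By rank (Spearman) Ppbp had 0.71 with Cxcl3 and 0.76 with Cxcl5, for which Tnfrsf26 had 0.89.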

How the data were processed

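The authors' deposited table gives log2 values of 17271 genes in 15 samples, centred per gene on a median, per the file's name. Only 6.51% of genes have a median of 0 over these samples, so the centring used another set. STAR, Salmon and mm10 are named in the submitters' processing notes, without versions or roles. In 727 genes at least 2 samples share an exact value (0 of the 7 genes of the axis). Tests were made in limma 3.58.1 (R 4.3.3, eBayes with no trend, no minimum fold), with Benjamini-Hochberg adjustment over all 17271 genes and a threshold of 0.05. For the models, all 15 samples entered 1 fit with 4 means, and for PBS against 3day nt those 7 samples were fitted alone. The fit was tested on simulated data. T11, with 1 sample, was not tested. From each list of pathway or marker genes, those named were the called ones with the largest differences (not all printed), up to 2 per direction in 2151R against 2208L and 1 elsewhere. The genes of the axis and the lists were chosen with earlier results of these data known. Genes with a shared value and predicted genes were left out of the search for similar patterns. A gene found by that search is not reported here. Alternatives covered scaling, eBayes settings, filters, sample weights, sample subsets, muscle markers and each sample left out.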

Additional observations from a re-analysis of the deposited data

Results flagged for a closer look

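In groups of 4 to 10 samples, a sample was singled out where its gap to the nearest other, over the range of the group, passed Dixon's 95% critical value. Of 135 groups examined 10 had such a sample, and chance gives about 1 in 20. Of the 7 genes of the axis, Cxcl3 was 2.53 in 2151R replicate 2 (others -0.54 to -0.15), and Cxcl2 was 1.47 in 2208L PBS replicate 4 (others -0.05 to 0.03). Among listed genes, 2151R replicate 2 also stood apart in Ackr2, at 1.98, and in the transcription factor gene Cebpd, at -0.77 against -2.02 to -1.94. The 2208L ROSEN sample stood apart in Ptgs2, at -2.24, and in the claudin gene Cldn3, at 2.02. In 2208L PBS, Cldn7 was 0.53 in replicate 4, and replicate 3 had 0.24 for the T cell gene Cd3d and 3.001 for the adipocyte gene Retn, for which replicates 2 and 4 share 1 exact value. In 2151R replicate 4 the adipocyte gene Lep was 4.53, below the 5.93 to 6.19 of the others.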

How the results depend on the processing

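No paired analysis was possible because no replicate numbers are shared between groups in the labels. In 2151R against 2208L, sample weights gave 1 of the 7 genes higher and 4 lower, the PBS samples alone gave 4 lower, and the 3day nt samples alone turned Csf3r to 0.082. Sample weights lowered the genes called in 2225L against 2208L to 958 higher and 1200 lower, and in 2225L against 2151R to 2529 and 2723, with 0 of the 7 lower. With 1 sample left out of 2225L against 2151R, the 7 genes gave 0 to 1 higher and 1 to 3 lower, Cxcl2 ranged from -1.06 to 0.24 and Cxcl3 from -2.31 to 0.30.

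PBS against 3day nt depended most on the setting. Genes called were 5938 higher and 5754 lower with sample weights, 84 and 39 with the muscle marker covariate, and 76 and 22 without the samples high in muscle markers. Of the 7 genes 4 were higher with sample weights, 1 in the fit of all 15 samples, and 0 in both muscle settings. With 1 sample left out, 1362 to 3988 genes were higher and 1017 to 3111 lower, with 1 to 2 of the 7 higher. Cxcl3 turned to 0.42 with quantile normalization, 0.54 with sample weights, 0.50 with the muscle covariate and 1.34 without the muscle-high samples. Cxcl5 turned to 0.50 with sample weights and 0.12 without the muscle-high samples, and Csf3 to -0.22 with sample weights and -0.098 with the covariate. With 1 sample left out, Cxcl3 ranged from -1.18 to 1.42, Cxcl5 from -1.18 to 0.63 and Csf3 from -0.23 to 0.28. The cause was not tested in any of these. Counts of genes moved by over 1.5 times without 3day nt replicate 3 (1362 higher, 1017 lower) or replicate 1 (1723, 1227) and, for genes lower, without PBS replicate 1 (1844) or 2 (1780). The 7 genes gave 1 higher without PBS replicate 1, 2 or 3 or 3day nt replicate 2 or 3. With no counts deposited, what depth limits is unknown.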
